A study of Mus musculus with 9 samples.

Results

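Glucose reabsorption and renal gluconeogenesis were followed through 7 genes of the mouse kidney: the apical sodium-glucose transporters Slc5a2 and Slc5a1, the basolateral glucose transporters Slc2a2 and Slc2a1, and the gluconeogenic enzymes G6pc, Fbp1 and Pck1. They were taken by name from a table of 54532 genes, and all 7 were among the 12642 genes that passed the filter on low values. The study sequenced poly(A) RNA of kidney tissue. Its male mice, of strain C57BL/6J and 4 months old, formed 3 groups, each with 3 sequenced samples. In the first group, mice underwent hindlimb unloading, which lifts the hind limbs off the floor to mimic weightlessness, and received 4-phenylbutyrate (4-PBA, a chemical chaperone that eases protein folding) by intraperitoneal injection at 100 mg/kg per day. In the second, unloaded mice received vehicle, and in the third, ground controls were neither unloaded nor treated. Unloading and vehicle injection therefore cannot be told apart when unloaded mice are set against ground controls. The labels name no allele beyond this inbred strain, which all groups shared, and how long unloading lasted is not stated in them.

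The kidney filters glucose freely at the glomerulus and recovers nearly all of it in the proximal tubule. SGLT2, encoded by Slc5a2, carries the bulk of the load in the early tubule, and SGLT1, encoded by Slc5a1, binds glucose more tightly and clears the remainder further down. GLUT2 (Slc2a2) and GLUT1 (Slc2a1) let glucose leave the cell towards the blood. The same cells make glucose from lactate, glutamine and glycerol. Phosphoenolpyruvate carboxykinase (Pck1), fructose-1,6-bisphosphatase (Fbp1) and the catalytic subunit of glucose-6-phosphatase (G6pc) catalyse the steps that bypass glycolysis, and G6pc releases the free sugar.

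In the files' mm10 coordinates, Slc5a1 (ENSMUSG00000011034) lies at chr5:33104219-33162870, Slc5a2 (ENSMUSG00000030781) at chr7:128265657-128272430, Slc2a1 (ENSMUSG00000028645) at chr4:119108711-119137983 and Slc2a2 (ENSMUSG00000027690) at chr3:28697903-28731359, all on the plus strand. G6pc (ENSMUSG00000078650) lies at chr11:101367561-101377903 and Pck1 (ENSMUSG00000027513) at chr2:173153048-173159273 on the plus strand, and Fbp1 (ENSMUSG00000069805) at chr13:62864753-62888282 on the minus strand. Each value below is for a whole gene, so transcript variants were not told apart. BC017158 overlaps Slc5a2 on the other strand and was listed at 0.640 to 4.15 FPKM, and the antisense gene Gm12868 overlaps Slc2a1 and was listed at 0 to 5.39 FPKM. The libraries were strand-marked, but no source used here says whether strand was used in counting, so low values of Slc5a2 and Slc2a1 may share reads with these neighbours.

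RefSeq's promoter table (GRCm38.p6) held windows for 6 of the 7 genes. The stretches directly upstream of 4 of them are shown because Slc5a1, Slc2a2 and G6pc were 3 of the 4 genes whose unloaded and ground-control values did not overlap, and Pck1 is an enzyme gene whose values did. Capitals mark a match to a motif searched for, and each stretch runs 5′ to 3′ on the gene's own strand and ends just before the gene's start in the files.
Slc5a1, chr5:33103969-33104218: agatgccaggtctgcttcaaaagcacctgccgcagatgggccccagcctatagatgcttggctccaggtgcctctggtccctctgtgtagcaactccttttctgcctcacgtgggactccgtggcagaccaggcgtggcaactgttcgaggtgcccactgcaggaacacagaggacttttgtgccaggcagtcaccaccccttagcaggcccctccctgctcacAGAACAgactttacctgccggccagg
Slc2a2, chr3:28697653-28697902: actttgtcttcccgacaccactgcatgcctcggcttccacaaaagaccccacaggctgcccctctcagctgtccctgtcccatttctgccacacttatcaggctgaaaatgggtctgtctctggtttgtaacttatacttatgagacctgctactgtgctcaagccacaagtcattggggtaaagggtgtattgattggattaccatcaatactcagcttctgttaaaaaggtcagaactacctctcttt
G6pc, chr11:101367466-101367560: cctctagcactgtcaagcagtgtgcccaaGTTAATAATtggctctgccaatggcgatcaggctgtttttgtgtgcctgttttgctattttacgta
Pck1, chr2:173152823-173153047: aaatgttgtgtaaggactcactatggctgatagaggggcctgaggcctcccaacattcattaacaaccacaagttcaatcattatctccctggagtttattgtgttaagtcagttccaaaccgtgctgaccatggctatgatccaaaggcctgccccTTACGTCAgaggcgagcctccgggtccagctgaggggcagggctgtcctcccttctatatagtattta
Motifs were searched on both strands in windows of 300 bases, from 250 bases before to 50 after the RefSeq start. The capitals in G6pc match the HNF1 core GTTAATNAT, which occurred in 0.801% of 32851 promoter windows. Those in Pck1 match the cAMP response element TNACGTCA, which occurred in 2.93% of windows. Those in Slc5a1 are the reverse complement of the glucocorticoid receptor string TGTTCT, which occurred in 19.0% of windows and is therefore a common string. The G6pc window also held the forkhead string TGTTTNC, found in 20.5% of windows, and the TATA string TATAAA, found in 13.6%. The window of Slc2a2 held no match to any of the 6 motifs searched, nor did the window of Fbp1. The HNF4 string CAAAGTCCA, found in 0.475% of windows, matched in none of the 6 windows. The letters were chosen with knowledge of these well-studied promoters, and a match describes the letters and not a bound site.

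Values are fragments per kilobase of gene and per unit of library size (FPKM), as scaled by the authors, and the libraries held 7595631 to 15141784 reads. The mitochondrial genome gave 13.7% to 67.1% of reads in 4-PBA-treated unloaded mice, 63.7% to 79.3% in unloaded mice and 14.8% to 49.7% in ground controls. The third 4-PBA library (67.1%) sat with the unloaded libraries, and the third ground-control library (49.7%) lay between them and the rest. Reads outside the mitochondrial genome numbered 1568888 to 3037972 in the unloaded libraries and 2887586 in the third 4-PBA library, against 5780141 to 12893802 in the ground controls. All 20 proximal tubule markers were above 0 in every library, so the labelled tissue was present throughout. Their summed level was 1011 to 3439 FPKM in 4-PBA-treated unloaded mice, 595 to 913 FPKM in unloaded mice and 2876 to 3627 FPKM in ground controls. Pseudogenes gave 3.73% to 7.54% of reads outside the mitochondrial genome in the unloaded libraries and 4.83% in the third 4-PBA library. That share was 0.955% and 1.18% in the first and second 4-PBA libraries and 1.16% to 1.76% in ground controls. In these bulk samples, fewer proximal tubule cells, less RNA per cell and a difference in the quality of RNA or libraries cannot be told apart. The part of such quality in the values below was not tested.

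**Figure D1:**
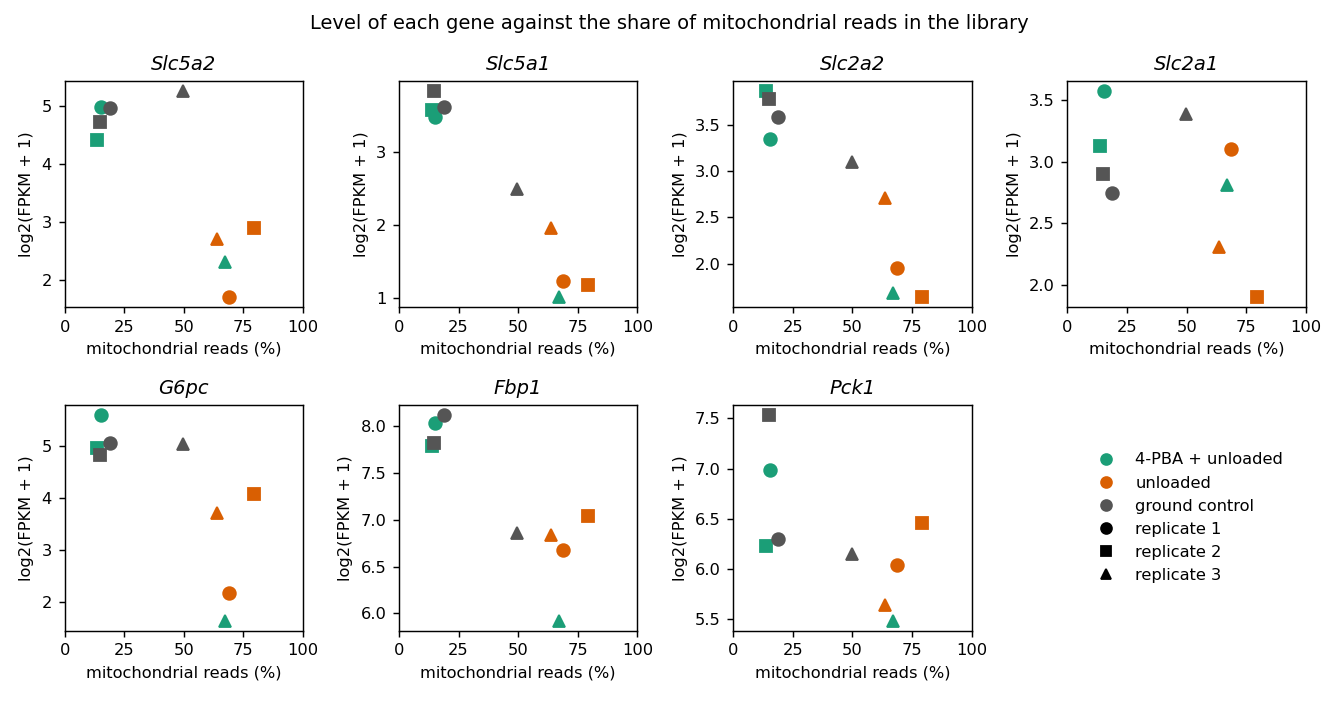
Each point is a library, with its share of reads from the mitochondrial genome (percent) on the x axis and the level of a gene as log2(FPKM + 1) on the y axis, in a panel for each of the 7 genes. The 3 unloaded libraries and the third 4-PBA library, all above 60%, sit at the right, and for Slc5a1, Slc5a2, Slc2a2 and G6pc they hold the lowest values.

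Both apical transporter genes had lower values in unloaded mice than in ground controls, and that of Slc5a2 passed the test. Slc5a2, which encodes the main glucose transporter of the early proximal tubule, was at 30.8, 20.3 and 3.93 FPKM in 4-PBA-treated unloaded mice, 2.25, 6.43 and 5.50 FPKM in unloaded mice and 30.5, 25.5 and 37.3 FPKM in ground controls. All unloaded libraries lay below all ground controls, and of the 4-PBA libraries the first lay within the ground-control range, the second below it and the third within the unloaded range. Slc5a2 fell in unloaded mice against ground controls by 2.56 ± 0.62 (SE) on the log2(FPKM + 1) scale, with an adjusted p of 0.0333 by limma over all 12642 genes tested. The unloaded values rest on 39, 58 and 108 reads, against 1719, 1772 and 1182 reads in the ground controls, and the lowest count had an exact 95% Poisson interval of 27.7 to 53.3 reads, which covers counting error only.

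Slc5a1, which encodes the high-affinity transporter of the later proximal tubule, was at 10.1, 11.0 and 1.02 FPKM in 4-PBA-treated unloaded mice, 1.35, 1.25 and 2.87 FPKM in unloaded mice and 11.2, 13.2 and 4.63 FPKM in ground controls. The unloaded libraries again lay below every ground control, the lowest of which was the third library with its raised mitochondrial share. The difference of unloaded mice from ground controls was -1.86 ± 0.66 (log2), with a limma adjusted p of 0.0954, so it did not pass. The fewest reads of this gene were the 16 of the second unloaded library, with an interval of 9.15 to 26.0 reads. The log2 ratio of Slc5a1 to Slc5a2 within a library was -0.74, -2.36 and -0.94 in unloaded mice and -1.44, -0.95 and -3.01 in ground controls, so the balance between the 2 transporters varied as much within groups as between them.

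The basolateral transporters had unlike patterns. Slc2a2, which encodes the low-affinity transporter GLUT2, was at 9.16, 13.5 and 2.20 FPKM in 4-PBA-treated unloaded mice, 2.88, 2.12 and 5.53 FPKM in unloaded mice and 11.0, 12.7 and 7.54 FPKM in ground controls. Its unloaded and ground-control values did not overlap, and the third 4-PBA library again sat among the unloaded ones. Slc2a2 differed between unloaded mice and ground controls by -1.38 ± 0.53 (log2), with a limma adjusted p of 0.117. Slc2a1, which encodes GLUT1, the basal glucose transporter of many cell types, was at 10.9, 7.76 and 6.04 FPKM in 4-PBA-treated unloaded mice, 7.60, 2.75 and 3.95 FPKM in unloaded mice and 5.70, 6.47 and 9.43 FPKM in ground controls. Here the groups overlapped, with the first unloaded library above 2 of the 3 ground controls, and the third 4-PBA library did not stand apart. Slc2a1 differed between unloaded mice and ground controls by -0.57 ± 0.36 (log2), with a limma adjusted p of 0.308. The 8 endothelial markers, another cell type that uses GLUT1, summed to 67.8 to 129.6 FPKM in 4-PBA-treated unloaded mice, 107.3 to 215.3 FPKM in unloaded mice and 63.3 to 88.9 FPKM in ground controls, and their part in the Slc2a1 values was not tested.

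Of the enzymes, only G6pc had unloaded values wholly below those of the ground controls, and none of the 3 passed the test. G6pc, whose product releases free glucose from glucose-6-phosphate, was at 47.5, 30.1 and 2.13 FPKM in 4-PBA-treated unloaded mice, 3.54, 15.8 and 12.1 FPKM in unloaded mice and 32.6, 27.4 and 32.0 FPKM in ground controls. The ground controls lay close together, the unloaded libraries were spread over a wide range, and the third 4-PBA library was below all 8 others. The difference of unloaded mice from ground controls was -1.66 ± 0.90 (log2), with a limma adjusted p of 0.243. Liver, the other organ that makes glucose, expresses G6pc strongly. The 13 liver markers summed to 35.3 to 115.7 FPKM in 4-PBA-treated unloaded mice, 25.7 to 154.4 FPKM in unloaded mice and 76.1 to 125.6 FPKM in ground controls, ranges that overlapped. The number of these markers listed at 0 was 3, 4 and 6 in 4-PBA-treated unloaded mice, 1, 2 and 2 in unloaded mice and 2, 2 and 5 in ground controls. The first unloaded library had the highest sum, with Tat alone at 0, and the part of liver RNA in the G6pc values was not tested.

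Fbp1, which removes a phosphate from fructose-1,6-bisphosphate, was at 260.6, 220.5 and 59.7 FPKM in 4-PBA-treated unloaded mice, 101.3, 130.3 and 113.5 FPKM in unloaded mice and 276.8, 225.6 and 114.9 FPKM in ground controls. It had the highest level per length of the 7 genes in every group mean, and the third ground control lay within the unloaded range while the other 2 were well above it. The difference of unloaded mice from ground controls was -0.75 ± 0.55 (log2), with a limma adjusted p of 0.388. Pck1, which turns oxaloacetate into phosphoenolpyruvate, was at 126.0, 74.0 and 43.7 FPKM in 4-PBA-treated unloaded mice, 64.8, 87.0 and 48.7 FPKM in unloaded mice and 77.8, 184.4 and 70.0 FPKM in ground controls. The groups overlapped, and the second ground control, the highest of the 9 libraries, stood well above the rest of its group. The difference of unloaded mice from ground controls was -0.62 ± 0.48 (log2), with a limma adjusted p of 0.416.

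**Figure D2:**
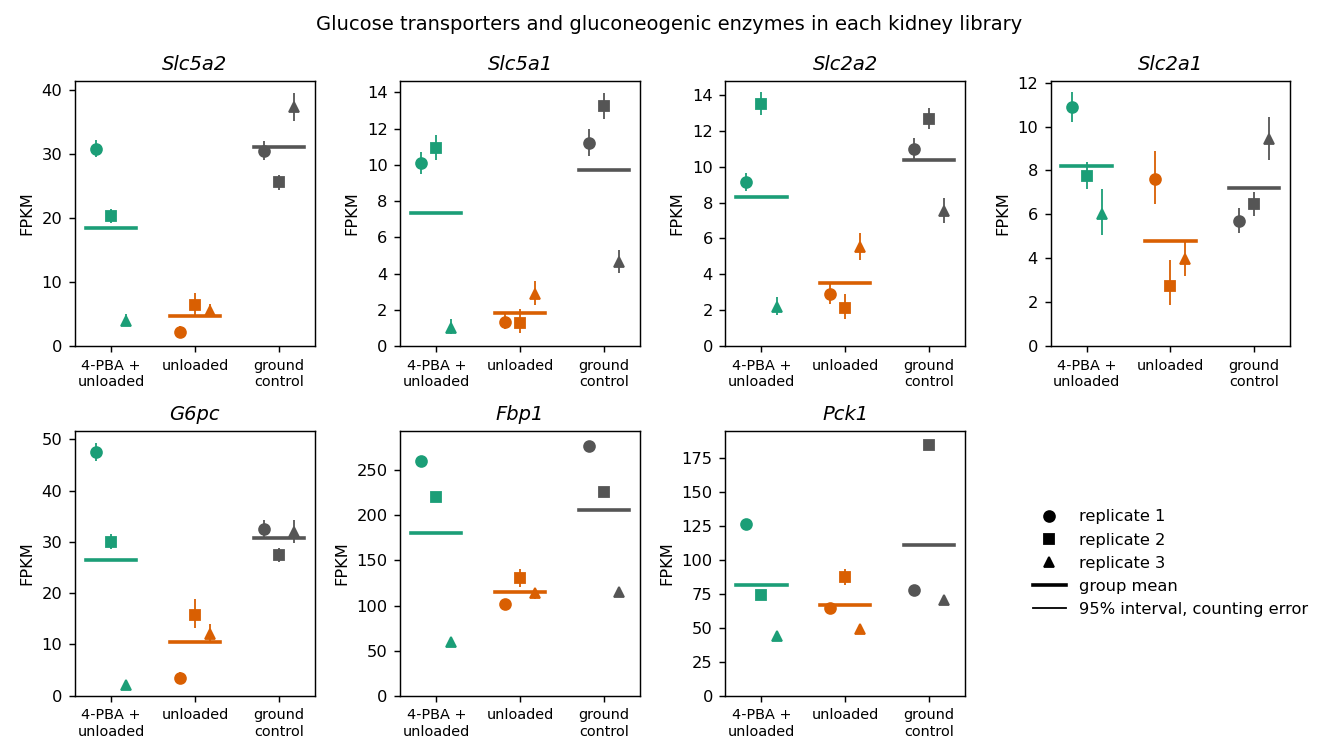
Level (FPKM, linear axis from 0) of the 7 genes in each library, with thin lines for the 95% counting interval and short horizontal bars for the group mean, in 4-PBA-treated unloaded mice, unloaded mice and ground controls from left to right. Unloaded libraries lie below all ground controls for Slc5a2, Slc5a1, Slc2a2 and G6pc, while those of Slc2a1, Fbp1 and Pck1 overlap, and the third 4-PBA library (triangle) lies within or below the unloaded range for all 7 genes.

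In group means, the levels per length in unloaded mice were ordered Fbp1 (115.0 ± 14.6 FPKM, SD, n = 3), Pck1 (66.9 ± 19.3), G6pc (10.5 ± 6.30), Slc2a1 (4.77 ± 2.52), Slc5a2 (4.73 ± 2.19), Slc2a2 (3.51 ± 1.79) and Slc5a1 (1.82 ± 0.910). From Slc2a1 to Slc5a1, the means of each gene and its neighbour in that order differed by less than the larger of their SDs between libraries. Within each unloaded library, however, Slc2a2 lay above Slc5a1, at 2.88, 2.12 and 5.53 FPKM against 1.35, 1.25 and 2.87 FPKM. In ground controls the order was Fbp1 (205.8 ± 82.8 FPKM), Pck1 (110.7 ± 63.9), Slc5a2 (31.1 ± 5.89), G6pc (30.7 ± 2.83), Slc2a2 (10.4 ± 2.62), Slc5a1 (9.69 ± 4.50) and Slc2a1 (7.20 ± 1.97). There, Slc5a2 and G6pc differed by less than their spread, as did neighbours among the last 3 transporters. In 4-PBA-treated unloaded mice the means were 180.3 ± 106.3 FPKM for Fbp1, 81.2 ± 41.6 for Pck1, 26.6 ± 22.9 for G6pc, 18.3 ± 13.5 for Slc5a2, 8.29 ± 5.70 for Slc2a2, 8.22 ± 2.45 for Slc2a1 and 7.36 ± 5.51 for Slc5a1. The third library was the lowest of that group for all 7 genes, and in this group the last 3 transporters, and likewise G6pc and Slc5a2, differed by less than their spread.

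Across the 7 genes, unloaded mice against ground controls gave 1 gene past the threshold, Slc5a2, and 3 at an unadjusted p under 0.05. Among all genes tested, 10.2% passed in either direction, 4.90% passed as lower and 29.8% had an unadjusted p under 0.05, so neither count stands well apart from that background. The 1292 calls divided into 672 higher and 620 lower, against 303 and 2036 when values were scaled to total reads and 848 and 468 when they were scaled to reads outside the mitochondrial genome. Groups did not overlap, with unloaded mice lower, for 4 of the 7 genes and for 19.4% of all genes. All 7 differences were negative, also under both other scalings, with a median of -1.38 against -0.03 for all genes tested. The Slc5a2 call was lost when any 1 of the 6 unloaded and ground-control libraries was left out, with limma adjusted p between 0.0505 and 0.114, and it was also lost without the filter on low values (0.103) and with limma-voom on recovered reads (0.0502). With the mitochondrial share as a covariate the Slc5a2 difference was -1.43 (limma adjusted p of 0.305), and those of Slc5a1, Slc2a2, G6pc, Fbp1 and Pck1 turned positive. Under that fit 0 of the 7 genes passed. The share was 63.7% to 79.3% in unloaded mice and 14.8% to 49.7% in ground controls, without overlap. That fit therefore cannot tell the share apart from unloading.

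The comparison of 4-PBA-treated with vehicle-treated unloaded mice asks what the drug altered during unloading. All 7 genes had a higher mean with 4-PBA, but every pair of ranges overlapped and none of the 7 passed the limma test. The difference was 1.47 ± 0.62 (log2) for Slc5a2, with an adjusted p of 0.224 by limma and an unadjusted p of 0.0400, which made it the 1 gene of 7 under 0.05 before adjustment, where 20.1% of all genes were. The difference was 1.24 ± 0.66 for Slc5a1, 0.86 ± 0.53 for Slc2a2 and 0.73 ± 0.36 for Slc2a1, with limma adjusted p of 0.325, 0.392 and 0.283 in that order. For the enzymes it was 0.75 ± 0.90 for G6pc, 0.40 ± 0.55 for Fbp1 and 0.19 ± 0.48 for Pck1, with limma adjusted p of 0.682, 0.726 and 0.858. With limma-voom the number called was also 0 of the 7. Among all genes, 2.69% passed in either direction, 1.16% passed as higher, and 10.1% had non-overlapping groups with 4-PBA higher. The members' median was 0.75, against 0.02 for all genes.

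The third 4-PBA library was the 1 library whose removal changed the count of called members in this comparison. The first and second 4-PBA libraries lay above every unloaded library for Slc5a1, Slc5a2, Slc2a2, G6pc, Fbp1 and Slc2a1. The third held the lowest value of its group for all 7 genes, so leaving it out necessarily raises each 4-PBA mean. The calls made without it are therefore no independent support for a rise with 4-PBA. Without the third library, 4-PBA against unloaded mice gave 4 genes that rose, where 5.32% of all genes were called as higher. Slc5a2 rose by 2.27 ± 0.39 (limma adjusted p of 0.00987), Slc5a1 by 2.07 ± 0.42 (0.0198), Slc2a2 by 1.50 ± 0.37 (0.0364) and G6pc by 1.96 ± 0.51 (0.0427). Without it, unloaded mice against ground controls gave 4 genes that fell, the same 4, where 9.40% of all genes were called as lower, since the spread is shared over the fit. Leaving out the third ground-control library as well, a step added after seeing the data, gave 4 calls in each comparison, Slc5a1, Slc5a2, Slc2a2 and Fbp1. There, 763 of all 12642 genes were called as lower in unloaded mice, and 587 as higher with 4-PBA. The third 4-PBA library carried a mitochondrial share of 67.1%, against 15.2% and 13.7% in the first and second 4-PBA libraries, and the part of that share in these values was not tested.

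**Figure D3:**
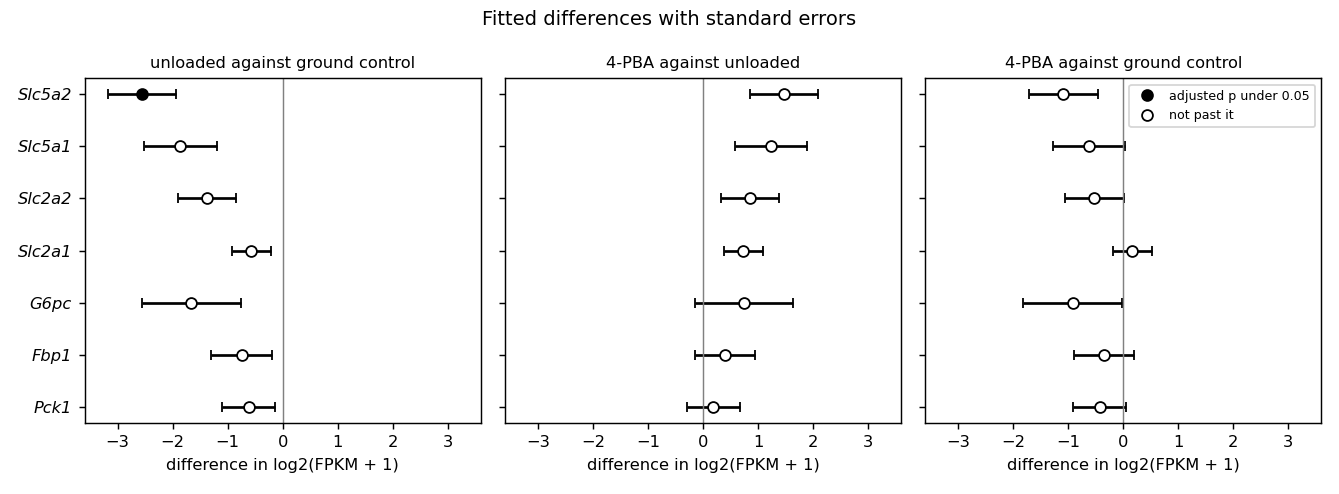
Log2 difference with its standard error for the 7 genes, for unloaded mice against ground controls, 4-PBA-treated against unloaded mice and 4-PBA-treated mice against ground controls, fitted with all 9 libraries. The 1 filled point, Slc5a2 at -2.56 in unloaded mice against ground controls, had an adjusted p under 0.05, and open points did not.

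Set against ground controls, 4-PBA-treated unloaded mice differed in none of the 7 genes by limma, with 0 at an unadjusted p under 0.05 and 0 by limma-voom, and all 7 pairs of ranges overlapped. Among all genes, 0% passed, 1.31% (165 genes) had an unadjusted p under 0.05, and 8.00% had groups that did not overlap. The differences were -1.09 ± 0.62 (log2) for Slc5a2, -0.91 ± 0.90 for G6pc, -0.62 for Slc5a1, -0.52 for Slc2a2, -0.43 for Pck1, -0.35 for Fbp1 and 0.16 for Slc2a1, with a limma adjusted p of 1 for each. The standard errors are too wide for these values to show that the groups were alike. The comparison shares its ground controls and its 4-PBA libraries with the other two, so the 3 sets of values are not independent.

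Because the proximal tubule markers also differed between groups, each gene was set against the mean log2(FPKM + 1) of the 20 markers in the same library. That mean was 5.98, 6.01 and 4.39 in 4-PBA-treated unloaded mice, 3.62, 4.38 and 4.12 in unloaded mice and 6.12, 6.14 and 5.75 in ground controls. Against ground controls, 13 of the 20 markers passed the limma threshold as lower in unloaded mice and 1 as higher, where 4.90% of all genes passed as lower. Relative to the markers, Fbp1 stood at 2.05, 1.78 and 1.53 in 4-PBA-treated unloaded mice, 3.05, 2.65 and 2.72 in unloaded mice and 2.00, 1.69 and 1.11 in ground controls. Every unloaded library was thus above every library of both other groups. Pck1 relative to the markers stood at 1.01, 0.22 and 1.09 in 4-PBA-treated unloaded mice, 2.42, 2.08 and 1.51 in unloaded mice and 0.18, 1.40 and 0.40 in ground controls, again with the unloaded libraries above all others. Slc5a2 lay the other way against ground controls, at -1.92, -1.49 and -1.42 in unloaded mice and -1.14, -1.41 and -0.49 in ground controls. The marker mean itself differed by -1.96 between unloaded mice and ground controls, against a median of -0.03 for all genes tested. A gene with an unchanged level would therefore also stand higher relative to the markers, so that position alone is no trait of Fbp1 or Pck1.

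Against ground controls, the unloaded difference relative to the markers was 1.21 for Fbp1, 1.34 for Pck1 and -0.60 for Slc5a2, each with an exact two-sided permutation p of 0.1, the smallest that 3 against 3 libraries allow. For the other genes it was 0.10 for Slc5a1, 0.30 for G6pc, 0.58 for Slc2a2 and 1.39 for Slc2a1, with exact permutation p of 0.7, 0.5, 0.4 and 0.2. The differences of Slc5a1 and G6pc were thus small beside those of the markers themselves, at -1.96. Between 4-PBA-treated and vehicle-treated unloaded mice, Fbp1 differed by -1.02 and Pck1 by -1.23 relative to the markers, both with an exact permutation p of 0.1. The marker mean itself was higher by 1.42 with 4-PBA, so a gene with an unchanged level would also stand lower relative to it. Within-library ratios of genes differed less clearly, except that Slc5a2 over Slc2a1 was lower by 2.14 on the log2 scale in unloaded mice (exact permutation p of 0.1). That log2 ratio was -1.75, 1.23 and 0.48 in unloaded mice and 2.42, 1.98 and 1.98 in ground controls. In 4-PBA-treated unloaded mice it was 1.50, 1.39 and -0.62, also below all ground controls, with a difference of -1.37 (exact permutation p of 0.1). Over the 45 tests of this family (15 measures in 3 comparisons), the lowest Benjamini-Hochberg adjusted permutation p was 0.5, and none could have passed 0.05 in this design.

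**Figure D4:**
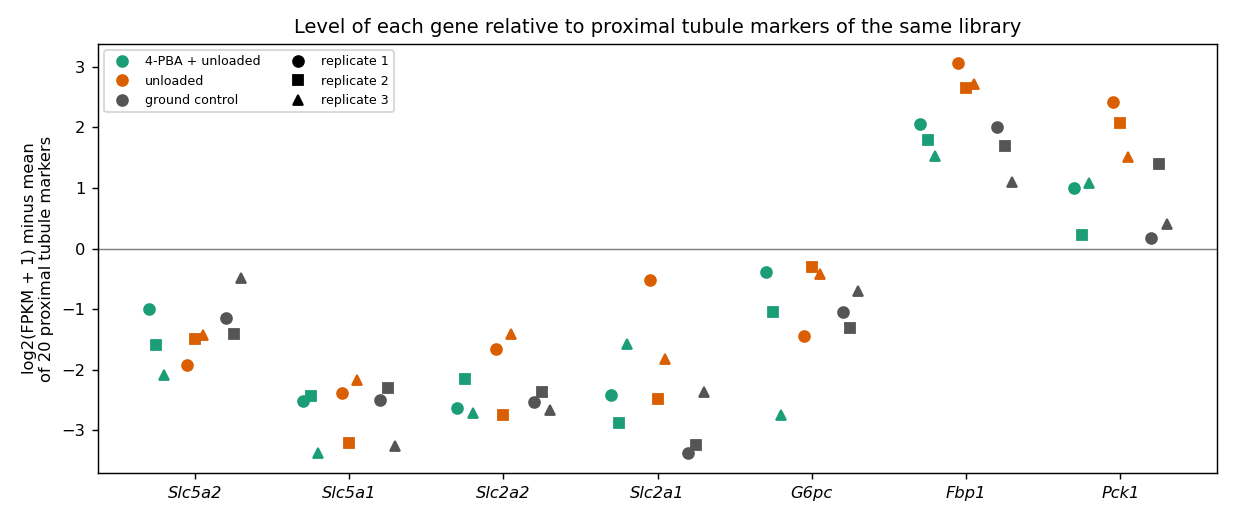
Log2(FPKM + 1) of each gene minus the mean of the 20 proximal tubule markers of the same library, in 4-PBA-treated unloaded mice, unloaded mice and ground controls from left to right. For Fbp1 (2.65 to 3.05) and Pck1 (1.51 to 2.42) the unloaded libraries lie above all others, and for Slc5a1 and G6pc the groups overlap.

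The 7 genes did not vary as 1 block across the 9 libraries, which differ together in depth and mitochondrial share. Pearson's r of log2(FPKM + 1) was 0.239 to 0.480 between Slc2a1 and the other 6 genes. The pair with the highest r was Slc5a1 with Slc2a2 (0.977), followed at 0.910 by Slc5a2 with G6pc. Outside the set, the protein-coding genes most like Slc5a2 were Rnf167 (r = 0.981), Slc34a3 (0.980), which encodes a sodium-phosphate cotransporter of the proximal tubule, and Slc22a5 (0.979), which encodes a carnitine transporter. Those most like Slc5a1 were Mettl7a1 (0.995), Crym (0.990) and Cyp2j5 (0.989), and those most like Slc2a2 were Psmb5 (0.990), Hint1 (0.987) and Phyh (0.987). G6pc was nearest to Tmem53 (0.990), Myo6 (0.977) and Gps1 (0.975), and Fbp1 to Gpm6a (0.977), Saraf (0.976) and Rnh1 (0.973). Pck1 was nearest to Calr (0.916), Slc35f5 (0.906) and Acadm (0.901), the last a gene of fatty acid oxidation. Slc2a1 was nearest to Fzd6 (0.926), Mpeg1 (0.891), a macrophage gene, and Plbd1 (0.876). These are descriptions over 9 libraries, picked as the highest of all genes tested.

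Around the 7 genes, 104 further entries in 6 lists covered the rest of the pathway, and 87 of them were tested. In unloaded mice against ground controls, 14 fell and 1 rose, and 38 had an unadjusted p under 0.05, where 4.90% of all genes fell and 29.8% had an unadjusted p under 0.05. Limma-voom called the same number lower, 14, but 5 higher, of which 3 were regulators and 1 was among the other gluconeogenic steps. Over all 12642 genes, limma-voom called 479 lower and 845 higher. Of the other hexose transporters and their partners, 5 of 11 tested fell and 0 rose, with a median of -0.91. Pdzk1ip1, whose product MAP17 is the accessory protein that SGLT2 needs for activity, was at 42.9, 40.7 and 44.3 FPKM in unloaded mice and 247, 263 and 217 FPKM in ground controls. The groups lay far apart and the unloaded libraries close together, and Pdzk1ip1 fell by 2.48 ± 0.38 on the log2 scale (limma adjusted p of 0.0101). Slc5a10, which encodes a mannose and fructose transporter of the kidney, averaged 7.67 ± 5.04 FPKM in unloaded mice and 66.5 ± 13.1 FPKM in ground controls (n = 3 each, SD) and fell by 3.09 (limma adjusted p of 0.0157). Slc5a11, which encodes a myo-inositol transporter, averaged 2.29 ± 0.955 FPKM in unloaded mice and 16.9 ± 2.53 FPKM in ground controls, and fell by 2.47 (limma adjusted p of 0.00604). The insulin-responsive transporter gene Slc2a4 fell by 1.73 (limma adjusted p of 0.0465), and Slc50a1, which encodes a sugar transporter, fell by 0.91 (0.0383). Slc2a4 was at 0, 1.39 and 3.39 FPKM in unloaded mice and 5.38, 7.19 and 6.38 FPKM in ground controls, so its call rests on low values in libraries of low depth. Slc2a4 is strongly expressed in fat, and the 5 adipocyte markers summed to 0.324 to 9.12 FPKM in unloaded mice and 3.15 to 316.5 FPKM in ground controls, and their part in its value was not tested.

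Of the other gluconeogenic steps, 3 of 18 tested fell and 0 rose, with a median of -0.57. Slc37a4, which encodes the transporter that brings glucose-6-phosphate into the endoplasmic reticulum where G6pc acts, was at 5.69, 5.62 and 3.72 FPKM in unloaded mice and 60.8, 52.7 and 36.9 FPKM in ground controls. The groups did not overlap, and Slc37a4 fell by 3.08 ± 0.60 on the log2 scale (limma adjusted p of 0.0189). Pcx, which encodes pyruvate carboxylase, fell by 1.66 (limma adjusted p of 0.0297), and Slc25a10, which encodes the mitochondrial dicarboxylate carrier, fell by 1.58 (0.0234). Among the genes of precursor supply 2 of 18 fell, Slc6a19 by 2.28 (limma adjusted p of 0.0183) and Slc38a3 by 1.89 (0.0274), which encode carriers of neutral amino acids and of glutamine. Slc38a3 was at 0.349, 2.98 and 0.475 FPKM in unloaded mice and 9.38, 4.57 and 5.97 FPKM in ground controls, so its call also rests on low values. Of the genes of fructose and polyol handling, 1 of 8 fell, by 1.43 (limma adjusted p of 0.0406): Adh1, which encodes an alcohol dehydrogenase and no enzyme specific to fructose or polyols. Of the steps used in glycolysis alone, 1 of 11 rose and 0 fell, with a median of 0.16. It was the aldolase gene Aldoc, at 6.06, 5.42 and 8.99 FPKM in unloaded mice and 1.32, 1.98 and 0.308 FPKM in ground controls (log2 difference 1.88 ± 0.39, limma adjusted p of 0.0217).

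Among regulators of renal glucose genes 3 of 21 tested fell, with a median of 0.31, so more members had a positive difference than a negative one. Pth1r, the parathyroid hormone receptor gene, averaged 49.5 ± 9.40 FPKM in unloaded mice and 177.6 ± 36.7 FPKM in ground controls (n = 3 each, SD), and fell by 1.82 (limma adjusted p of 0.0159). Nr1h3, which encodes the liver X receptor alpha, fell by 1.26 (limma adjusted p of 0.0189). The 15 calls over the 6 lists became 1 without the first ground-control library, 5 without the second, 2 without the third, 8 without the third unloaded library, 28 without the third 4-PBA library, 4 without the filter on low values, 27 when scaled to total reads and 0 with the mitochondrial share as a covariate. Over all genes tested, the 1292 calls became 69, 230, 126, 669, 2360, 238, 2339 and 99 under the same changes, in that order. Without the filter, 30407 genes were tested. Markers of several cell types moved with these lists. Beside the proximal tubule markers, the 6 podocyte markers summed to 14.9 to 22.0 FPKM in unloaded mice and 37.6 to 62.8 FPKM in ground controls. The 7 intercalated cell markers summed to 65.4 to 77.4 FPKM in unloaded mice and 117.5 to 166.2 FPKM in ground controls, and the 6 thick limb markers to 175.8 to 228.2 FPKM in unloaded mice and 271.5 to 494.5 FPKM in ground controls. The 7 fibroblast and matrix markers lay the other way, at 13.7 to 237.7 FPKM in 4-PBA-treated unloaded mice, 127.1 to 277.5 FPKM in unloaded mice and 16.3 to 46.8 FPKM in ground controls. The part of these cell types in the result was not tested.

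In 4-PBA-treated against unloaded mice 4 of the 87 tested genes rose and 0 fell, where 1.16% of all genes rose. Pdzk1ip1 was at 188, 311 and 103 FPKM with 4-PBA, all above the unloaded libraries at 42.9, 40.7 and 44.3 FPKM, and rose by 2.07 ± 0.38 (limma adjusted p of 0.0284). Slc5a11 averaged 14.0 ± 5.08 FPKM with 4-PBA and 2.29 ± 0.955 FPKM in unloaded mice, and rose by 2.17 (limma adjusted p of 0.0121). Pth1r rose by 1.62 (limma adjusted p of 0.0411), and so did Cebpb, which encodes a transcription factor of the cAMP and glucagon response, by 1.16 (0.0470). In the other 4 lists limma called 0 of 55 genes, with 15 at an unadjusted p under 0.05, which 20.1% of all genes had, and 2 called by limma-voom. There, abundant members differed by 1.13 for the ketohexokinase gene Khk, 0.40 for Aldoa, 0.03 for Mdh1 and -0.16 for Sord. The difference was 0.80 for Ldha, -0.03 for Ldhb and -0.11 for Pkm. Over the alternatives tried, the count of 4 became 0 without the filter on low values, with only the 6 samples compared, with the mitochondrial share as a covariate and without the second 4-PBA library, and 18 without the third. It was 1 without any 1 of the 3 ground controls, the first unloaded library or the first 4-PBA library, and 2 without the third unloaded library. Slc37a4 also divided within the 4-PBA group, at 43.4, 56.2 and 8.03 FPKM, the third library being close to the unloaded ones. Against ground controls, 4-PBA-treated mice differed in 0 of the 87 genes by limma and by limma-voom, with 2 at an unadjusted p under 0.05.

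**Figure D5:**
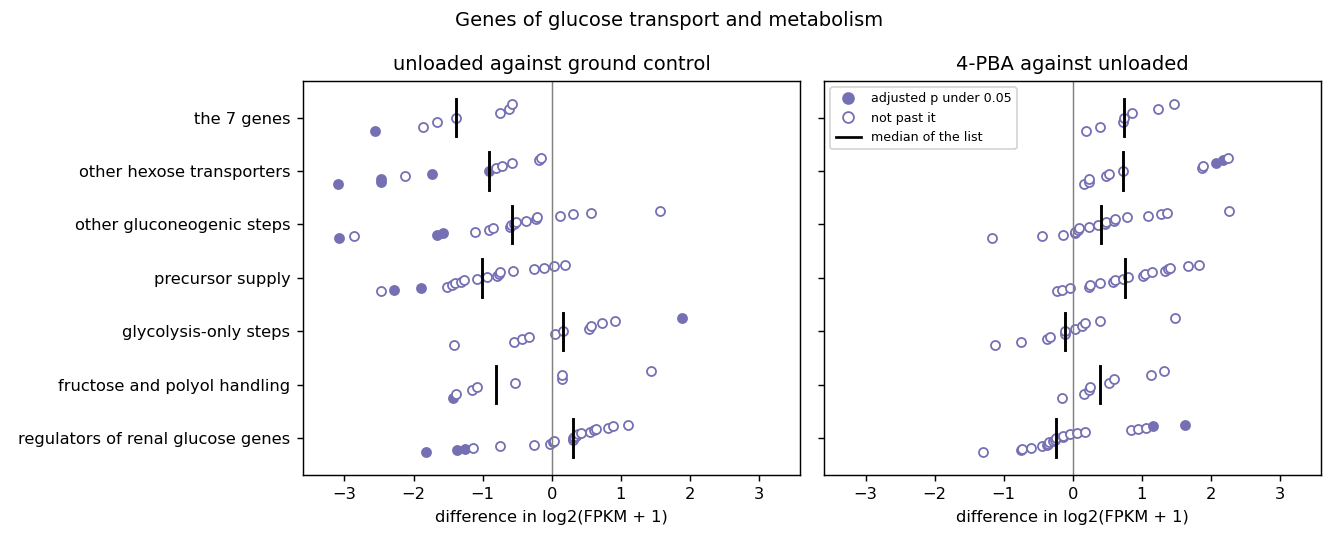
Log2 differences of the tested genes of the 6 pathway lists and of the 7 genes, for unloaded mice against ground controls (left) and 4-PBA-treated against unloaded mice (right), with a point for each gene, filled where the adjusted p was under 0.05, and a black bar for the list's median. On the left the medians of hexose transporters (-0.91) and precursor supply (-1.01) lie below 0, and that of the glycolysis-only steps (0.16) does not.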

How the data were processed

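Per the labels' protocols, poly(A) RNA of 9 kidney samples, 3 per group, was sequenced with paired ends and strand marking. The submitters' processing notes name CASAVA, cutadapt, HISAT2 and mm10, without versions; which tool counted reads is not stated there. The deposited values behave as FPKM: multiplied by gene length and by 1 factor per library they gave whole numbers of reads to within 0.01, in 100% of cases. That factor does not follow total reads. Nothing states that samples of a group came from separate mice, so p-values measure the spread between these samples. No libraries of a group agreed within sampling noise.

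limma 3.58.1 (R 4.3.3) was fitted to log2(FPKM + 1) of all 9 samples in 1 fit with a trend and no block, on genes with at least 1 FPKM in at least 3 libraries, with Benjamini-Hochberg adjustment over all 12642 genes and a threshold of 0.05. Fold changes are on that scale, which understates those of low genes. Single values were compared by exact two-sided permutation. Alternatives covered scaling, filter, pseudocount, samples in the fit, limma-voom on recovered reads, a replicate block, the mitochondrial share as a covariate and each sample left out; leaving out 2 libraries together was added after seeing the data. The code was tested on simulated data. Sequences are RefSeq's (GRCm38.p6). Figures used Python 3.11.15 and matplotlib 3.10.9.

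The 7 genes and all lists were chosen with earlier results of these data known. All 7 genes are named; from each pathway list, genes past the threshold, up to the 5 with the largest change, or otherwise the 2 with the largest mean FPKM. The results of 2 such genes are left out here.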

Additional observations from a re-analysis of the deposited data

How the results depend on the processing

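In unloaded mice against ground controls the 1 member called became 0 without the filter on low values, with limma-voom on recovered reads, with a replicate block and with the mitochondrial share as a covariate. It became 2 when values were scaled to total reads, which moved the median of all genes to -0.78, and 3 with only the 6 samples compared. It was 4 without replicate 3 of both the ground controls and 4-PBA, and 0 to 4 when each library was left out in turn. In 4-PBA-treated against unloaded mice the 0 members called became 4 without those 2 libraries, and 0 to 4 with each left out. Scaling to total reads moved the median of all genes to 0.71 there. Without those 2 libraries, 1424 of all genes were called in unloaded mice against ground controls and 1118 in 4-PBA-treated against unloaded mice. The count over all genes was 69 to 2360 (1292 with all 9) and 36 to 1320 (340 with all 9) with each library left out, 99 and 121 with the covariate, 2339 and 722 scaled to total reads, 238 and 17 without the filter, 904 and 137 with the block, 1754 and 17 with only the 6 samples, and 1039 and 145 with a pseudocount of 0.1.

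With the mitochondrial share as a covariate, differences of unloaded mice from ground controls turned to 0.0603 for Slc5a1, 0.0287 for Slc2a2, 0.22 for G6pc, 0.20 for Pck1 and 0.70 for Fbp1. Those of 4-PBA-treated from unloaded mice turned to -0.50, -0.41, -0.95, -0.55 and -0.91 for the same genes. In both comparisons 0 of the 7 genes passed with the covariate. The share did not overlap between unloaded and ground-control libraries, so this fit cannot tell it apart from unloading. With each library left out, 4-PBA-treated against unloaded mice ranged from -0.0216 to 1.96 for G6pc and from -0.19 to 0.56 for Pck1. 4-PBA-treated mice against ground controls ranged from -1.07 to 0.21 for Slc5a1, -0.0362 to 0.35 for Slc2a1, -0.97 to 0.12 for Slc2a2, -1.68 to 0.30 for G6pc, -0.81 to 0.0085 for Pck1 and -0.74 to 0.31 for Fbp1. Without replicate 3 of ground controls and of 4-PBA, G6pc stood at 0.33 and Slc2a1 at 0.53 there. The cause of these changes was not tested. Over 147 pairs of gene and alternative per comparison, 123, 131 and 140 kept direction and side of the threshold.

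Same-numbered replicates did not pair: over 9 pairs r was -0.196 to 0.288, with 2 over 0.1. With the replicate block, Slc5a2 in unloaded mice stood at -2.56 with a limma adjusted p of 0.0537. Depth limits the unloaded libraries and replicate 3 of 4-PBA most, where Slc5a1, Slc5a2 and G6pc rest on 16 to 198 reads.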
